A study of Mus musculus with 8 samples.

Results

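Genes of cholesterol and fatty acid synthesis were examined in STHdh striatal cells after transfection of the transcription factor Bcl11b. The 37 genes were named by symbol and fell into 3 lists, with 19 enzymes of the sterol pathway, 9 enzymes of fatty acid synthesis, elongation and desaturation, and 9 regulators and transporters of sterols. The array carried 41 probes under 30 of these symbols, of 25697 probes and 18120 symbols in all. Mvk, Fdft1, Tm7sf2, Acss2, Acaca, Srebf2 and Npc1 were not matched by symbol, so their expression was not analysed here.

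STHdh cells are conditionally immortalized mouse neuronal progenitors from embryonic striatum, and the cells used were wild-type for huntingtin. One group of 4 arrays came from cells transfected with a pcDNA3.1 plasmid carrying mouse Bcl11b cDNA (beta isoform), and the other group of 4 came from mock-transfected cells that received empty pcDNA3.1, which the labels also call wild-type. Both groups were grown in medium with fetal bovine serum and G418 and were harvested 2 days after transfection. RNA was taken from whole wells of a single cell line, so cells that took up the plasmid were measured together with those that did not, and fewer cells expressing a gene cannot be told apart from less of its RNA per cell.

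Cholesterol is built from acetyl-CoA through mevalonate, squalene and lanosterol, and long-chain fatty acids are built from the same acetyl-CoA and then elongated and desaturated. The transcription factors SREBP-1 and SREBP-2, products of Srebf1 and Srebf2, switch on many of these enzymes together when membrane sterol is low, and the proteins encoded by Scap, Insig1 and Insig2 hold the SREBPs in the endoplasmic reticulum or release them. The brain makes nearly all of its own cholesterol, since lipoproteins of the blood do not cross the blood-brain barrier.

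The bases upstream of 4 sterol enzymes are shown because the RNA of these 4, Acat2, Hmgcs1, Lss and Sc4mol, was lower in Bcl11b-transfected cells with an unadjusted limma p under 0.05. Each sequence is the 250 bases before the transcription start in RefSeq (GRCm38.p6), printed 5′ to 3′ on the gene's strand. Capitals mark matches on either strand to CCAAT, the box bound by NF-Y, which reads ATTGG on the opposite strand, or to TCACNCCAC, a form of the sterol regulatory element bound by SREBPs. Hmgcs1 lies at chr13:119690101-119690350 on the plus strand, Lss at chr10:76531355-76531604 on the plus strand, Sc4mol (Msmo1 in RefSeq) at chr8:64733579-64733828 on the minus strand, and Acat2 at chr17:12960726-12960975 on the minus strand.
Hmgcs1: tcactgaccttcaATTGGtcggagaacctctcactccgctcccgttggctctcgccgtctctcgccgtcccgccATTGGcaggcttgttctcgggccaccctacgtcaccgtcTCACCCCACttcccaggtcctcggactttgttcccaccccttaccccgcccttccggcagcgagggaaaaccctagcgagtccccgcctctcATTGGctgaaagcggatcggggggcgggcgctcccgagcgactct
Lss: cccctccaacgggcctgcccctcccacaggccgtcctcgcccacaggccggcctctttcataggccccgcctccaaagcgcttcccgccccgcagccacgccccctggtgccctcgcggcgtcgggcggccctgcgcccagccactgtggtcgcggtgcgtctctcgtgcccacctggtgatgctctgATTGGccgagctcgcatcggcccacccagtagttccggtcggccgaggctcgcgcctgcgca
Sc4mol: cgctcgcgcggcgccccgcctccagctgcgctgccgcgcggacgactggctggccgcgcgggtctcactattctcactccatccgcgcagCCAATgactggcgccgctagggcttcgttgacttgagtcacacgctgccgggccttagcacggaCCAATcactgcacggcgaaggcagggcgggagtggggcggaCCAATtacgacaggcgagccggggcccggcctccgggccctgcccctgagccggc
Acat2: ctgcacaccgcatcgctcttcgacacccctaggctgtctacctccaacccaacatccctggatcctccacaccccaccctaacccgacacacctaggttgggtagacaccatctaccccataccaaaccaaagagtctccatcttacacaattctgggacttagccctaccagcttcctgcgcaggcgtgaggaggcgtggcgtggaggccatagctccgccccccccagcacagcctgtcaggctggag

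The motifs were searched on both strands in windows of 300 bases, 250 before the start and 50 after it, and 29 of the 37 genes, among them Mvk, Tm7sf2, Acss2, Acaca and Srebf2 without a matched probe, had 37 such windows among 32851 in RefSeq. CCAAT was in 64.9% of the 37 windows and in 37.4% of all windows. Sterol enzymes held most of these matches, with CCAAT in 15 of their 19 windows (78.9%). By gene, 15 of 16 had it in at least 1 window, Acat2 being the exception. CCAAT was in 3 of the 6 windows of fatty acid enzymes and in 6 of the 12 windows of regulators and transporters. In Hmgcs1 the leftmost bases of CCAAT lay at -237, -176, -45 and 11, counted from +1 at the start with no position 0, the last of them downstream of the printed bases. In Lss it lay at -62, and in Sc4mol at -160, -96 and -55. TCACNCCAC was found at -137 in Hmgcs1 and in no other of the 37 windows (2.70%), against 1.24% of all windows. The E-box CACGTG, the other core to which SREBPs can bind, was in 18.9% of the 37 windows (Dhcr7, Hsd17b7, Sc5d, Insig1, Scap and Abca1) and in 7.15% of all windows. The 2 windows of Scap overlap and hold the same CACGTG, which is counted in each. In the 4 printed sequences no match to one motif overlapped a match to another. A match is a stretch of letters and not a measured binding site.

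Each probe value is the deposited background-subtracted signal after quantile normalization over the 8 arrays, on the log2 scale, and differences are Bcl11b minus mock. A probe was called detected on an array when the deposited detection p-value was under 0.01, and a gene with several probes was described by its brightest one. Replicates are separate sets of transfected cells, so p-values measure the spread between such sets, and the number of arrays limits the precision. Before normalization the mock arrays were brighter, with a median signal of 31.6 to 53.9 against 20.1 to 30.2 on the Bcl11b arrays, while the number of detected probes was 10121 to 10784 and 10342 to 10644. Correlations of an array with the others of its group were 0.960 to 0.974. The only Bcl11b probe was detected on none of the 8 arrays and checks neither group's label. Of marker genes on the array, 3 of 4 of neural progenitors (Nes, Sox2 and Vim, but not Pax6) and 3 of 6 of mesenchymal cells (Acta2, Col1a1 and Pdgfrb) were detected on all 8 arrays, Col3a1 on some, and Col1a2 and Thy1 on none. No array detected any of 9 markers of medium spiny neurons or of 4 of oligodendrocytes, and of the astrocyte and microglial markers only Slc1a3 (1 of 4) and Cd68 (1 of 5) were detected, on some arrays. The summed signal of each list overlapped between the groups. The microglial list summed to 41.7 to 77.7 in mock and 73.9 to 150 in Bcl11b-transfected cells. For the medium spiny neuron, oligodendrocyte, astrocyte and microglial lists the sums rest mostly on values below the detection limit. Those sums therefore do not compare the groups. With an unadjusted p under 0.05, Pdgfrb was lower (-0.49, SE 0.15, adjusted p = 0.309 in limma). Cd68 was detected on 2 Bcl11b and 0 mock arrays. No p-value is given for Cd68, since its mock values lay below the detection limit. The part of these markers in the results below was not tested.

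Of the 30 genes on the array, 27 were detected in both groups, that is on at least 1 array of each, with 26 of them on all 8 arrays and Fasn on 2 mock and 3 Bcl11b arrays. The probes of Ggps1, Srebf1 and Abca1 stayed below the detection limit on all 8 arrays. Among the 27 genes 22 were lower and 5 higher in Bcl11b-transfected cells, that is 81.5% below 0 against 55.3% of the 8028 genes of the array detected in both groups. An unadjusted limma p under 0.05 was reached by 7 genes (25.9%), all lower, where 14.1% of the 8028 genes were lower and 4.37% higher. Where the higher group mean also had to exceed the lower by at least 25%, 4 genes (14.8%) were lower and 0 higher, against a background of 11.4% lower and 3.46% higher, so by this rule the share was near that of all genes. In 4 genes (14.8%), Hmgcs1, Lss, Acat2 and Acly, every Bcl11b array was below every mock array, against 7.96% of all genes, and none of the 27 was separated in the other direction, against 2.25%. After Benjamini-Hochberg adjustment over all 25697 probes 2 of the 27 genes, Hmgcs1 and Lss, were below 0.10, both lower. Of the 8028 genes 110 were lower and 26 higher by this rule. Over all probes, 13942 of them detected on no array, 0.627% were lower and 0.981% changed in either direction. The median difference was -0.19 over the 27 genes and -0.041 over the 8028.

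**Figure D1:**
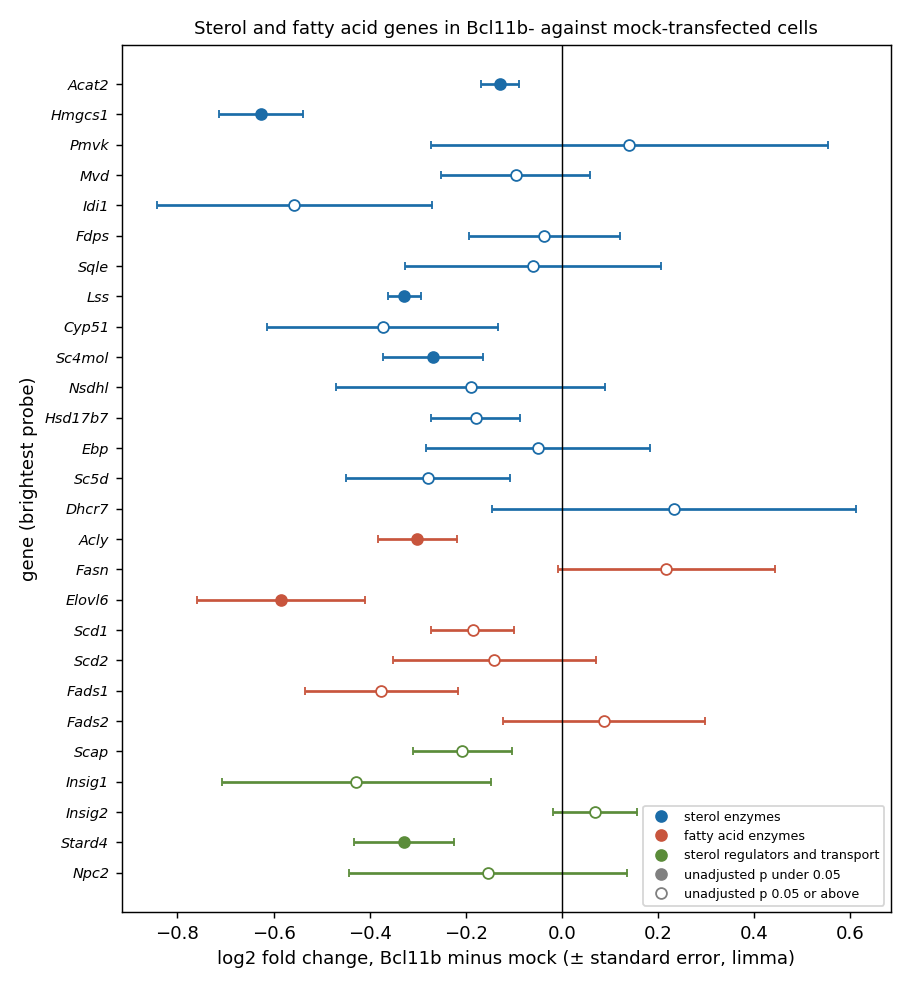
Log2 fold change (Bcl11b minus mock, x axis) with its limma standard error for the brightest probe of each of the 27 genes detected in both groups (y axis), coloured by list and filled where the unadjusted p was under 0.05. The 7 filled points are all below 0, from -0.63 (Hmgcs1) to -0.13 (Acat2), and with division by the array median in place of quantile normalization the point of Acly moves to 0.024. The 5 genes above 0, Dhcr7, Fasn, Pmvk, Fads2 and Insig2, have open points at 0.068 to 0.23.

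The first steps of the sterol pathway lead from acetyl-CoA to mevalonate and the isoprenoid units. Acat2, the cytosolic thiolase that joins acetyl-CoA units, read 10.21, 10.15, 10.30 and 10.13 on mock arrays 1 to 4 and 10.08, 10.05, 10.03 and 10.11 on Bcl11b arrays 1 to 4. The groups did not overlap, but the difference was small, -0.13 (SE 0.040, 1.09-fold, unadjusted p = 0.0171 and adjusted p = 0.334 in limma). The unadjusted limma p of Acat2 was 0.295 with only probes detected (p under 0.01) on at least 4 arrays, and 0.146 with limma-trend. Hmgcs1, the HMG-CoA synthase that makes the substrate of HMG-CoA reductase, read 13.54, 13.53, 13.58 and 13.66 on the mock arrays and 12.81, 13.02, 12.82 and 13.16 on the Bcl11b arrays. It was the brightest of the 27 genes, and every Bcl11b array was below every mock array. Its mean was 13.58 ± 0.056 (SD, n = 4) in mock and 12.95 ± 0.17 (SD, n = 4) in Bcl11b-transfected cells. Hmgcs1 thus fell by 0.63 on the log2 scale (SE 0.087, 1.54-fold, unadjusted p = 0.000279 and adjusted p = 0.0573 in limma). With each array left out in turn its difference stayed between -0.70 and -0.57, but its adjusted p ran from 0.0353 to 0.167 and was under 0.10 only without mock replicate 2 or without Bcl11b replicate 4. With division by the array median in place of quantile normalization the difference was -0.27 (adjusted p = 0.288 in limma), and the adjusted p was 0.155 with limma-trend and 0.125 without normalization.

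Pmvk and Mvd, kinase and decarboxylase of the mevalonate steps, differed by 0.14 (SE 0.41) and -0.096 (SE 0.16), within their spread between replicates. Idi1, which interconverts the isoprenoid units, differed by -0.56 (SE 0.29, unadjusted p = 0.0969 in limma), and its mock arrays alone ranged from 7.31 to 8.43. Fdps, which joins the units into farnesyl diphosphate, differed by -0.037 (SE 0.16). Each of these 4 genes had groups that overlapped.

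The later steps turn squalene into lanosterol and lanosterol into cholesterol. Sqle, the squalene epoxidase that is a second control point of the pathway, read 12.64, 13.50, 12.84 and 13.42 on the mock arrays and 12.85, 12.80, 12.95 and 13.56 on the Bcl11b arrays. The values of its 2 groups overlapped nearly throughout, and the difference was -0.060 (SE 0.27) for this probe and -0.11 for the other Sqle probe. Lss, the lanosterol synthase that closes the sterol rings, read 10.57, 10.57, 10.54 and 10.68 on the mock arrays and 10.23, 10.27, 10.23 and 10.31 on the Bcl11b arrays. Both groups were tight and lay apart, with 10.59 ± 0.060 (SD, n = 4) in mock and 10.26 ± 0.038 (SD, n = 4) in Bcl11b-transfected cells. Lss fell by 0.33 on the log2 scale (SE 0.035, 1.26-fold, unadjusted p = 5.58e-05 and adjusted p = 0.0281 in limma). Its adjusted p was 0.0335 to 0.0997 with each array left out in turn, and 0.213 when only probes detected on at least 4 arrays were tested.

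Cyp51, the lanosterol demethylase, read 10.58 to 10.93 on the mock arrays and 10.10, 10.0004, 10.37 and 11.03 on the Bcl11b arrays. Bcl11b replicate 4 was above all mock arrays while the other 3 were below them, and the difference was -0.37 (SE 0.24, unadjusted p = 0.169 in limma), or -0.59 (unadjusted p = 0.00637) without that array. Sc4mol, the sterol C4-methyl oxidase, read 12.03, 12.31, 12.19 and 12.34 on the mock arrays and 11.85, 11.94, 11.82 and 12.18 on the Bcl11b arrays. Only Bcl11b replicate 4 reached into the mock range, and the difference was -0.27 (SE 0.10, 1.2-fold, unadjusted p = 0.0393 and adjusted p = 0.444 in limma). The p of Sc4mol was no longer under 0.05 in 6 of the 8 fits without 1 array. Nsdhl, which acts with Sc4mol in removing the C4 methyl groups, had 4 probes with differences of -0.61 to -0.19. The brightest differed by -0.19 (SE 0.28), or by -0.47 (unadjusted p = 0.00268 in limma) without mock replicate 1, whereas a dimmer one was lower without overlap, 7.13 to 7.75 on the mock and 6.73 to 7.001 on the Bcl11b arrays (unadjusted p = 0.00457 and adjusted p = 0.197 in limma).

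Of the remaining enzymes, Hsd17b7, the ketoreductase of the same demethylation, differed by -0.18 (SE 0.093), and Sc5d, the C5-desaturase, by -0.28 (SE 0.17). Ebp, the isomerase that shifts the ring double bond, differed by -0.050 (SE 0.23), and Dhcr7, the reductase that completes one branch of the pathway, by 0.23 (SE 0.38). Dhcr7 was also the most variable of the 27 genes among the mock arrays, at 7.93, 8.33, 6.75 and 7.11. Over the 15 sterol enzymes detected in both groups 13 were below 0 (86.7%), 4 of them with an unadjusted p under 0.05 (26.7%). Of the 8028 genes 55.3% were below 0 and 14.1% lower at that limit. With the fold threshold added 13.3% of these enzymes were lower, near the 11.4% of all genes. The median difference was -0.18, or -0.075 with division by the array median.

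**Figure D2:**
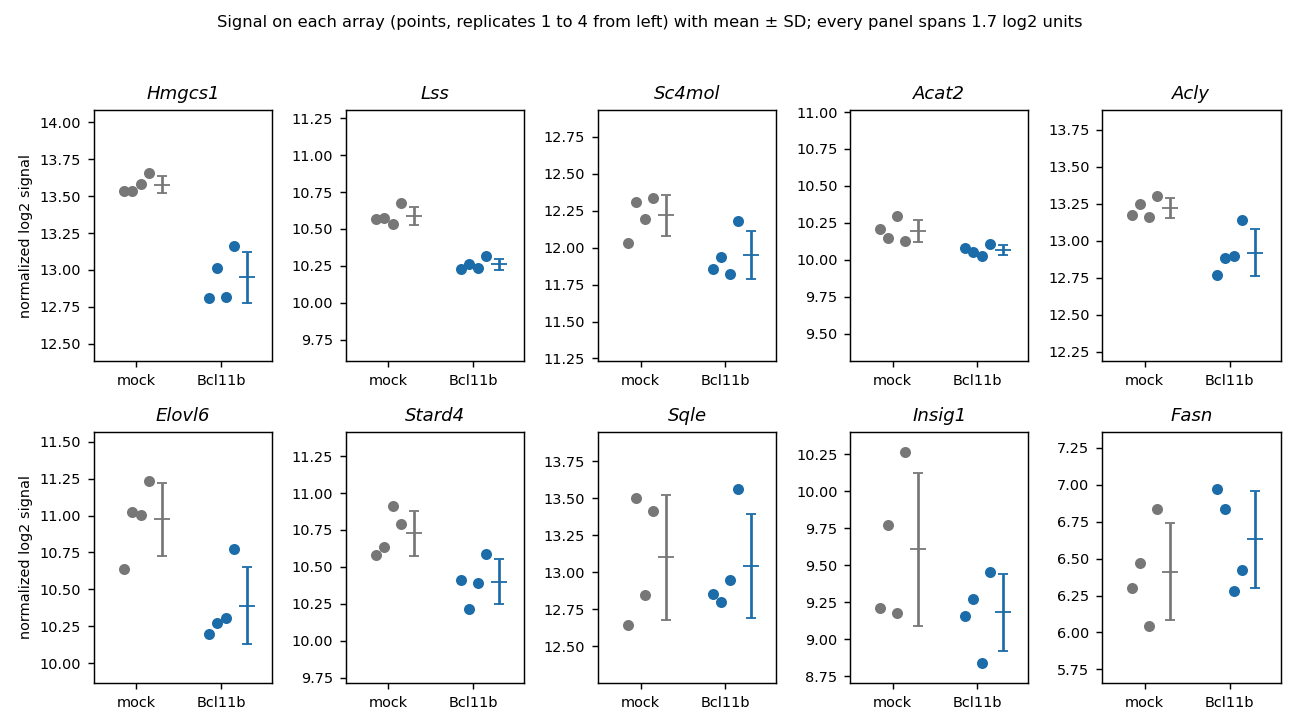
Normalized log2 signal (y axis, each panel spanning 1.7 units) on each of the 4 mock and 4 Bcl11b arrays (x axis), with points for replicates 1 to 4 from left and mean ± SD beside them, for the 7 genes with an unadjusted p under 0.05 and for Sqle, Insig1 and Fasn. Hmgcs1, Lss, Acat2 and Acly show no overlap between groups with this normalization, whereas the points of Sqle overlap nearly throughout; divided by the array median in place of quantile normalization, Acly differs by 0.024 and Sqle by 0.240 in the other direction.

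Fatty acid synthesis starts with Acly, the ATP citrate lyase that supplies cytosolic acetyl-CoA to both pathways. Acly read 13.18, 13.25, 13.16 and 13.30 on the mock arrays and 12.77, 12.88, 12.90 and 13.14 on the Bcl11b arrays. Its groups did not overlap, though mock replicate 3 and Bcl11b replicate 4 lay close together. The difference of Acly was -0.30 (SE 0.083, 1.23-fold, unadjusted p = 0.00965 and adjusted p = 0.265 in limma) but was 0.024 with division by the array median in place of quantile normalization. Fasn, the fatty acid synthase itself, was dim, at 6.30, 6.47, 6.05 and 6.83 on the mock arrays and 6.97, 6.84, 6.28 and 6.43 on the Bcl11b arrays. Its groups overlapped and the difference was 0.22 (SE 0.23, unadjusted p = 0.370 and adjusted p = 0.83 in limma).

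Elovl6, the elongase that extends palmitate to stearate, read 10.64, 11.02, 11.003 and 11.23 on the mock arrays and 10.20, 10.27, 10.31 and 10.77 on the Bcl11b arrays. Bcl11b replicate 4 exceeded mock replicate 1 and the other 3 Bcl11b arrays were below all mock arrays. The difference of Elovl6 was -0.58 (SE 0.17, 1.5-fold, unadjusted p = 0.0139 and adjusted p = 0.309 in limma). Scd1 and Scd2, the desaturases that make monounsaturated fatty acids, differed by -0.19 (SE 0.087) and -0.14 (SE 0.21). Fads1, which desaturates polyunsaturated fatty acids, differed by -0.38 (SE 0.16, unadjusted p = 0.0532 in limma). Fads2, which acts on the same class of fatty acids, differed by 0.088 (SE 0.21), within its spread between replicates. Of the 7 fatty acid enzymes 5 were below 0 (71.4%), 2 of them, Acly and Elovl6, with an unadjusted p under 0.05 (28.6%). For all genes these shares were 55.3% and 14.1%. With the fold threshold added 14.3% of these enzymes were lower, near the 11.4% of all genes. The median difference was -0.19, or -0.045 with division by the array median.

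Among the regulators, Srebf1 had 2 probes and neither was detected on any array, so its level has only an upper bound here, and Srebf2 was not matched. Scap, the escort of the SREBPs, differed by -0.21 (SE 0.10, unadjusted p = 0.0880 in limma), and its groups overlapped at 9.09 to 9.52 on the mock and 8.94 to 9.23 on the Bcl11b arrays. Insig1, a retention protein that is itself an SREBP target, read 9.21, 9.77, 9.18 and 10.27 on the mock arrays and 9.15, 9.27, 8.84 and 9.45 on the Bcl11b arrays. Mock replicates 2 and 4 were high and the other 2 lay among the Bcl11b arrays, with a difference of -0.43 (SE 0.28, unadjusted p = 0.174 and adjusted p = 0.719 in limma), or of -0.21 without mock replicate 4. All 3 detected Insig1 probes were below 0, at -0.43 to -0.17, and none had an unadjusted p under 0.05. Insig2, the second retention protein, differed by 0.068 (SE 0.087) on its brightest probe and by -0.16 on another, so its probes disagree in sign.

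Stard4, which carries sterols between membranes, read 10.58, 10.64, 10.91 and 10.79 on the mock arrays and 10.41, 10.22, 10.39 and 10.59 on the Bcl11b arrays. The groups met only where Bcl11b replicate 4 was just above mock replicate 1. The difference of Stard4 was -0.33 (SE 0.10, 1.26-fold, unadjusted p = 0.0181 and adjusted p = 0.338 in limma). Npc2, which moves cholesterol out of lysosomes, differed by -0.15 (SE 0.29), and Abca1, the cholesterol exporter, was not detected. The 5 detected regulators and transporters had a median difference of -0.21, 4 below 0 (80%, against 55.3% of all genes) and 1 above.

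The spread between replicates differed widely among the 27 genes, from an SD of 0.056 (Hmgcs1) to 0.726 (Dhcr7) in mock and from 0.034 (Acat2) to 0.664 (Pmvk) in Bcl11b-transfected cells. To set the arrays side by side, each gene was centred on its mean over the 8 arrays and the deviations were averaged within each list. Sterol enzymes averaged 0.132, 0.20, -0.037 and 0.078 on the mock arrays and -0.136, -0.116, -0.079 and -0.042 on the Bcl11b arrays. Mock replicate 3 thus sat next to Bcl11b replicate 4, and the other 6 arrays lay farther apart by group. Fatty acid enzymes averaged -0.136, 0.232, 0.023 and 0.247 on the mock and -0.124, -0.127, -0.221 and 0.105 on the Bcl11b arrays. Here the groups overlapped, since mock replicate 1 was low and Bcl11b replicate 4 high. Regulators and transporters averaged 0.048 to 0.233 on the mock and -0.135 to -0.078 on the Bcl11b arrays.

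**Figure D3:**
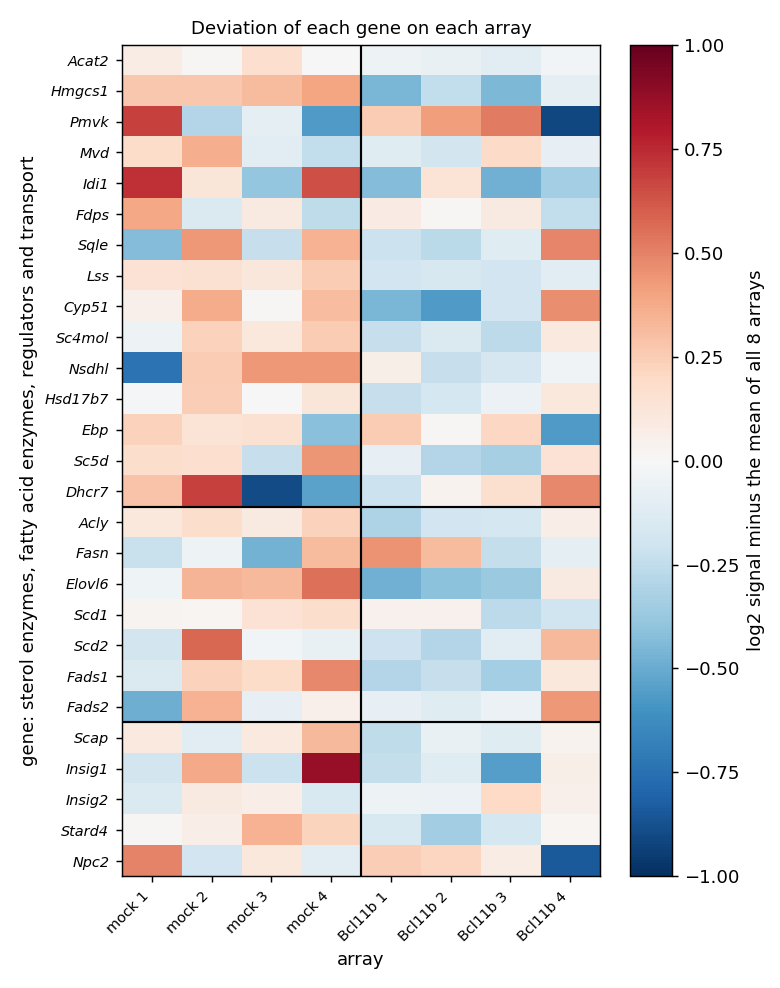
Deviation of each of the 27 genes (y axis, horizontal lines between the 3 lists) from its mean over the 8 arrays, on each array (x axis, vertical line between groups), in log2 units from blue (below) to red (above). Averaged over the 15 sterol enzymes the mock columns stand at -0.037 to 0.20 and the Bcl11b columns at -0.136 to -0.042, and the column of Bcl11b replicate 4 is above 0 for 5 of the 7 fatty acid enzymes.

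The size of the differences varied with the normalization, and more so for bright genes. With signals scaled by the median of each array in place of quantile normalization, the 914 genes of the array with a mean log2 signal of at least 12 had a median difference of 0.247, against -0.037 with quantile normalization. The 6 sterol and fatty acid genes in this range (Sc4mol, Fdps, Sqle, Acly, Fads1 and Hmgcs1) had a median of -0.010 by division and -0.29 by quantile normalization, below all bright genes by either scale. For the 13 genes between 9 and 12 the medians were -0.089 and -0.19, and for the 8 dimmer genes 0.043 and -0.004. By division Hmgcs1 differed by -0.27 (adjusted p = 0.288 in limma), Lss by -0.26 (adjusted p = 0.202) and Elovl6 by -0.51 (adjusted p = 0.367), and these 3 were the genes that kept an unadjusted p under 0.05. The share of all 8028 genes called at that limit also turned, to 8.12% lower and 9.33% higher, and 11.1% of the 27 genes were lower and 0 higher.

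**Figure D4:**
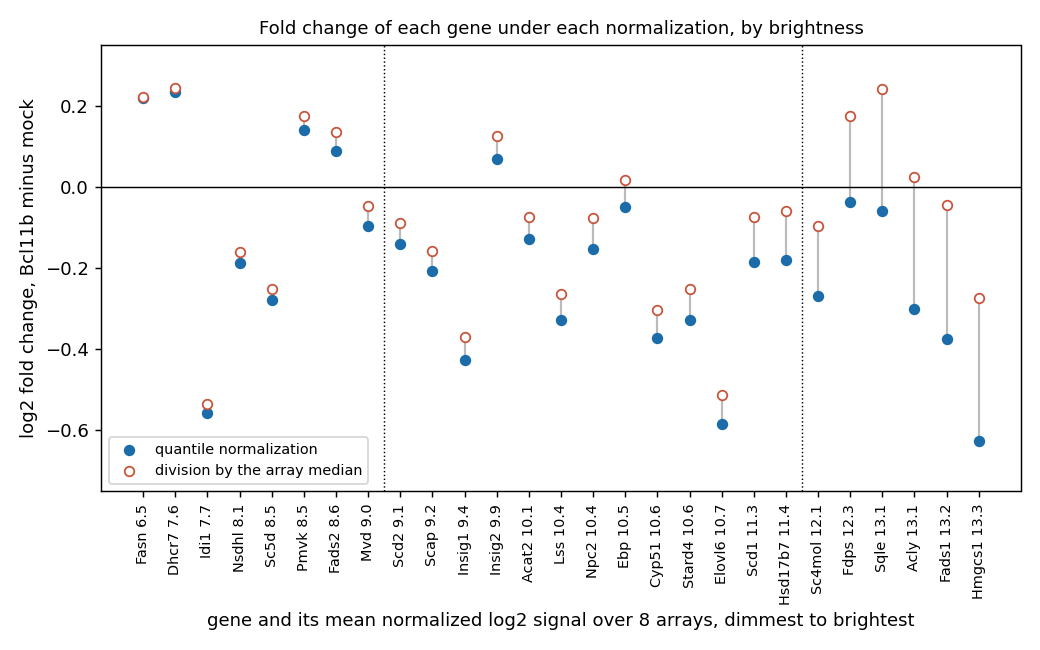
Log2 fold change (Bcl11b minus mock, y axis) of the 27 genes ordered by mean normalized log2 signal (x axis, value after each name), with quantile normalization (filled) and with division by the array median (open). Dotted lines stand at a mean signal of 9 and 12. The gap between the points is wide for the 6 brightest genes, where Hmgcs1 moves from -0.63 to -0.27 and Acly, Sqle and Fdps cross 0 to 0.024, 0.240 and 0.173, and Ebp, of medium brightness, crosses to 0.017.

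A further 52 genes of the surrounding pathways (acyl-CoA synthetases, other elongases, triglyceride and NADPH enzymes) gave 45 on the array and 32 detected in both groups. With an unadjusted p under 0.05, 5 of these (15.6%) were lower and 1 higher (3.12%), close to the 14.1% and 4.37% of all genes. The median difference was -0.15, against -0.041 over the 8028 genes of the array detected in both groups. Acsl5, an acyl-CoA synthetase, was lower without overlap, with 12.67 to 12.95 on the mock and 12.31 to 12.56 on the Bcl11b arrays. Its difference was -0.39 (SE 0.083, 1.31-fold, adjusted p = 0.172 in limma). Further lower genes, named after their values were seen, were Por, the reductase that feeds electrons to Cyp51 and Sqle (-0.50), Slc25a1, the mitochondrial citrate carrier (-0.39, with 0.087 on a second probe), and Acsl3 (-0.35). The higher gene, named in the same way, was Dgat2, which completes triglyceride synthesis (0.93, SE 0.35, adjusted p = 0.418 in limma). None of these 6 lower or higher genes reached an adjusted p of 0.10. Lpin1, a phosphatidate phosphatase of triglyceride synthesis, is outside these counts because it was detected on 3 Bcl11b arrays and on 0 mock arrays, and it was named after its values were seen. Its brightest probe read 3.96 to 4.80 on the mock and 6.18 to 6.64 on the Bcl11b arrays, and its other probes were detected on no array. No p-value is given, since the mock values lay below the detection limit. As the mock values were below detection, the fold is given as at least 1.12-fold higher, set against the dimmest detected signal on those arrays.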

How the data were processed

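RNA of 8 samples was hybridized to Illumina MouseRef-8 v2 arrays. The authors deposited 1 background-subtracted intensity per probe from GenomeStudio, without normalization between arrays, and a detection p-value per probe. Groups and replicate numbers came from the sample titles. All 25697 probes were quantile-normalized, floored at 1, log2-transformed and compared with limma 3.58.1 (R 4.3.3; lmFit and eBayes, no covariate) with Benjamini-Hochberg adjustment. Thresholds were an adjusted p of 0.10, an unadjusted p of 0.05, and that with the higher group mean at least 25% above the lower. The fit was tested on simulated data. The member genes and all lists were chosen with earlier results of these data known. Each gene was represented by its brightest probe, and full statistics are given for genes with an unadjusted p under 0.05 and for Srebf1, Srebf2, Insig1, Hmgcs1 and Fasn. Genes of other pathway lists are named where p was under 0.05 with a change of that size and no overlap, and others are marked as named after their values were seen. Genes were matched by the deposited symbol. One gene of the other pathway list is counted but not reported by name here. Promoters came from RefSeq (GRCm38.p6). Alternatives were neqc, division by the array median, signals left unnormalized, an added offset of 16, limma-trend, array weights, replicate number as a block, probes kept only if detected (p under 0.01 or 0.05) on 4 or more arrays, and each array left out in turn. The deposited table names no slide or scan, so these could not be used as blocks.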

Additional observations from a re-analysis of the deposited data

Results flagged for a closer look

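In 4 of 60 groups of 4 arrays, 1 array stood far from the other 3 by Dixon's test, where chance gives about 1 in 20. Ebp was low on mock replicate 4, at 10.039 against 10.598 to 10.687 on the others. Fads2 was high on Bcl11b replicate 4, at 9.066 against 8.510 to 8.576. Npc2 was low on Bcl11b replicate 4, at 9.589 against 10.502 to 10.671. The brightest Nsdhl probe was low on mock replicate 1, at 7.357 against 8.349 to 8.532. With all arrays none of these 4 genes had an unadjusted limma p under 0.05 on this probe, whereas without mock replicate 1 the Nsdhl difference went from -0.189 to -0.465 (unadjusted p = 0.00268).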

How the results depend on the processing

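Of the 41 probes, 2 had an adjusted p under 0.10 in the main fit, where 0.981% of all probes did. The count was 0 without normalization between arrays, with division by the array median or with limma-trend. It was 1 with either detection filter, 4 with array weights and 1 to 3 with 1 array left out. The share of all probes was computed only for the main fit, so these other counts cannot be set against it. Lower genes with an unadjusted p under 0.05 numbered 7, against 20 without normalization (where 51.9% of all genes were lower) and 3 with division (8.12%). They numbered 11 with array weights (20.1% of all genes) and 6 to 10 with 1 array left out (9.37% to 17.6%). With either detection filter or limma-trend they numbered 5 (18.5%), where 11.5% to 12.6% of all genes were lower. For the fold threshold the share of all genes was computed only for the main fit (11.4% lower). The counts under other settings that follow therefore cannot be set against all genes. With the fold threshold added the lower genes numbered 4, against 20 without normalization, 1 with division and 8 with array weights. With 1 array left out they numbered 2 to 8 (8 without mock replicate 1 or Bcl11b replicate 4, 2 without mock replicate 4). None was higher under any setting. Of the other pathway genes 5 were lower, against 20, 3 and 10, 3 with limma-trend, and 3 to 9 with 1 array left out (9 without Bcl11b replicate 4, 3 without mock replicate 4 or without Bcl11b replicate 1 or 3), and 1 was higher, against 0 without normalization, 2 with division and 0 to 2 with 1 array left out (2 without mock replicate 2, 0 without mock replicate 3 or 4 or Bcl11b replicate 3 or 4). The replicate number as a block left 1 of the 41 probes (Lss, adjusted p = 0.0701 in limma, with Hmgcs1 at 0.188) and 0 higher other pathway genes. Deviations of same-numbered arrays correlated with r = 0.677, -0.63, 0.182 and 0.695 for replicates 1 to 4. The same-numbered Bcl11b array was the best match of mock replicates 1 and 4 but not of 2 and 3. Whether the numbers pair the samples cannot be settled from these values.

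Without normalization the median of the 8028 genes shifted by -0.659, and the medians of sterol enzymes, fatty acid enzymes and regulators were -0.827, -0.797 and -0.910, or -0.126, -0.097 and -0.209 relative to all genes, against -0.138, -0.144 and -0.165 with quantile normalization. With division the sterol median was -0.075 and the fatty acid median -0.045. Relative to all genes these were -0.126 and -0.097, the same as without normalization. Division shifts all log2 values above the floor on an array alike, so for these relative medians it is no separate check. The regulators' median was -0.284 with array weights and -0.28 to -0.204 with 1 array left out. The sign turned with division for Acly (0.024), Ebp (0.017), Fdps (0.173) and Sqle (0.240), and with array weights for Ebp (0.145), Fads2 (-0.048), Fdps (0.067) and Npc2 (0.104). Without normalization, where 95.6% of all genes and all 27 of these were below 0, the sign of Dhcr7 (-0.508), Fads2 (-0.618), Fasn (-0.532), Insig2 (-0.626) and Pmvk (-0.577) is set by the common shift and says nothing of their stability. With 1 array left out it turned for Dhcr7 (-0.026 to 0.502), Ebp (-0.201 to 0.132), Fads2 (-0.06 to 0.22), Fdps (-0.129 to 0.086), Mvd (-0.196 to 0.01), Npc2 (-0.259 to 0.099), Pmvk (-0.025 to 0.471), Scd2 (-0.273 to 0.027) and Sqle (-0.235 to 0.074). Leaving out 1 array brought p under 0.05 for Cyp51, Fads1, Hsd17b7, Idi1, Nsdhl, Sc5d, Scap and Scd1. Acat2 and Sc4mol passed 0.05 neither with the detection filters nor with limma-trend or division, Acat2 not with the block, and Stard4 not with division. Causes were not tested. Probes near background, such as those of Fasn, have only bounds on some arrays.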
